A study of Mus musculus with 8 samples.

Results

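A set of 10 genes for receptors of adenosine and extracellular nucleotides, and for the enzyme that removes extracellular ATP, were followed in mast cells depleted of Mettl3. The genes were taken as a list of symbols and matched through Ensembl gene IDs, and all 10 were found among the 56748 gene IDs of the count tables. The adenosine receptors were Adora2a, Adora2b and Adora3, the ATP-gated channels were P2rx1, P2rx4 and P2rx7, the G protein-coupled nucleotide receptors were P2ry1, P2ry2 and P2ry14, and the ectonucleotidase was Entpd1. RNA-seq had been performed on bone marrow derived mast cells (BMMCs), which were grown in IL-3 from the bone marrow of young wild-type C57BL/6 mice and were not stimulated. In 4 Mettl3-RNP libraries (genotype label Mettl3 KO) the cells had received Cas9 ribonucleoproteins (RNPs) against Mettl3, the catalytic subunit of the complex that places m6A on mRNA. In 4 Pulsed libraries (genotype label Mettl3 WT) the cells had been mock transfected and received no RNP. The edited cultures were bulk populations that kept some untargeted cells, and the control had no cut at another locus, so effects of Cas9 cutting and of Mettl3 loss cannot be told apart. Both groups carry the replicate numbers 1 to 4, and libraries of the same number were compared as a pair.

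Extracellular ATP is released by stressed, activated or dying cells and opens P2X channels, while P2Y receptors respond to ADP, ATP, UTP or UDP-sugars through G proteins. Entpd1 (CD39) trims ATP and ADP to AMP, from which Nt5e (CD73) makes adenosine. In rodent mast cells adenosine is known to enhance degranulation through Adora3, which couples to Gi and to the gamma form of PI3K, whereas Adora2a and Adora2b raise cAMP through Gs.

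The guides listed by the study against Mettl3 are shown because they define the perturbation, with the guide in lower case and the adjoining PAM read from GRCm39 in capitals. Which of them went into the sequenced cells is not given in the sources used here.
crRNA_Mettl3_1: cacgggactatcactacggaAGG
crRNA_Mettl3_2-HDR: ggacacgtggagctctatccAGG
crRNA_Mettl3_3-HDR: gatggggtaaccaacaatcgAGG
The first matches chr14:52537803-52537822 on the plus strand, within exon 2 of the 11 exons of the canonical Mettl3 transcript. The next matches chr14:52542420-52542439 on the minus strand in exon 1, and the last chr14:52542216-52542235 on the plus strand outside the exons of that transcript. Within the loci of the 10 receptor and ectonucleotidase genes, no site next to an NGG PAM matched any of the 3 guides with fewer than 4 mismatches.

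Mettl3 was examined first. It was measured at 12.3, 9.18, 4.88 and 9.21 CPM (counts scaled to the size of the library, with TMM scaling between libraries) in Mettl3-RNP 1 to 4 and at 25.9, 24.5, 11.2 and 26.5 CPM in Pulsed 1 to 4. It was lower in 4 of 4 pairs, with a log2 fold change of -1.30 (SE 0.109, adjusted p 0.00543 by edgeR). Of its exon length, 34.1% lies opposite Tox4 (3014 to 8012 counts), and without a stated strand setting the reads of this stretch cannot be assigned to either gene. Total counts ran from 32643260 to 45324826 per library. The summed level of 14 mast cell markers ranged from 48867 to 66441 CPM in Mettl3-RNP and from 53001 to 72161 CPM in Pulsed libraries, with the protease Cpa3 the most abundant and lower in Mettl3-RNP cells (log2 fold change -0.37, adjusted p 0.0328). Cpa3 did not pass without replicate 2, 3 or 4 (adjusted p 0.159, 0.0710 and 0.109) or with at least 10 counts in every library (0.0583). Of 8 neutrophil markers, S100a8, S100a9, Camp and Elane were at 0 counts in every library, and the whole list summed to at most 0.398 CPM. Macrophage markers summed to between 2.42 and 5.91 CPM, and Adgre1 among them was lower in Mettl3-RNP cells (log2 fold change -1.13, adjusted p 0.0435), but did not pass with any replicate left out (0.0906 to 0.110) or with library sizes alone (0.0507).

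No member of the set passed an adjusted p of 0.05 in the edgeR test with the replicate number as a block, 0 of 10, while 559 of the 14942 genes tested did (3.74%). Of all genes, 2.35% passed as higher and 1.39% as lower in Mettl3-RNP cells. Adora2b, Adora3, P2rx7, P2ry14 and Entpd1 were higher in 4 of 4 pairs and P2rx1 was lower in 4 of 4 pairs, against 15.7% of all genes that were higher and 16.0% that were lower in every pair. These 6 genes also had an unadjusted p of 0.05 or less, which 22.5% of all genes had. An adjusted p of 0.1 or less was found for 4 of the 10 members (Adora3, P2rx1, P2ry14 and Entpd1), and for 9.90% of all genes. The median log2 fold change was 0.24 over the 10 members and -0.0013 over all genes. DESeq2 with the same block called these 4 of the 10 members and 9.7% of all genes, limma-voom called P2ry14 alone and 4.3% of all genes, and no member was called with any replicate left out. The values of both groups overlapped for all 10 members, as they did for all but 3.23% of the genes tested. Flipping the signs of the 4 paired differences in an exact two-sided permutation test cannot give a p below 0.125, and the 6 genes with one sign in all pairs had this p. Members of the set share libraries and are not independent observations. In bulk RNA, fewer cells that carry a transcript and less of it per cell cannot be told apart.

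**Figure D1:**
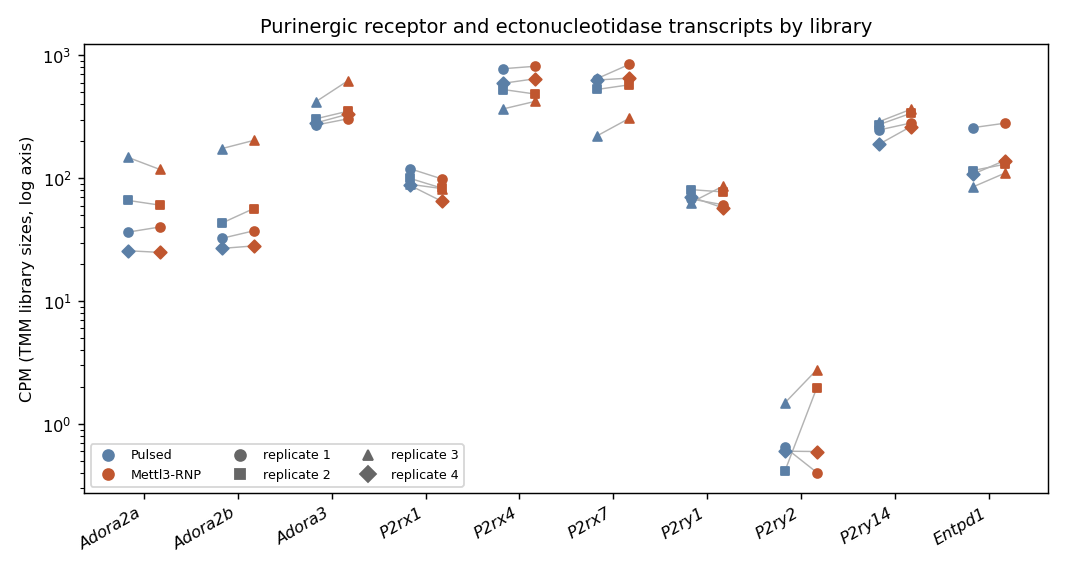
CPM of the 10 genes on a log axis, each point 1 library, with Pulsed in blue at the left and Mettl3-RNP in orange at the right of each gene and grey lines joining libraries of the same replicate number. Replicate 3 (triangles) lies highest for Adora2a, Adora2b and Adora3 and lowest for P2rx7 in both groups, and P2ry2 lies below 3 CPM throughout.

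Mast cells of both groups carried a majority transcript in each receptor class when levels were divided by the length of the canonical transcript. In Pulsed libraries the order of CPM per kb was P2rx4 (204 ± 61.5, SD, n = 4), P2ry14 (139 ± 24.3), Adora3 (134 ± 28.8), P2rx7 (102 ± 39.7), P2rx1 (39.1 ± 5.81), Adora2b (37.4 ± 38.0), Adora2a (25.02 ± 20.02), Entpd1 (24.6 ± 13.7), P2ry1 (18.1 ± 1.88) and P2ry2 (0.0942 ± 0.0571). The ranges of neighbours over the 4 Pulsed libraries overlapped except at the end of the order, where all P2ry1 values lay above all P2ry2 values. Library by library, P2rx7 also lay above P2rx1, at 130, 106, 44.6 and 127 against 47.2, 39.3, 35.2 and 34.6 CPM per kb in Pulsed 1 to 4. In Mettl3-RNP libraries the leading 4 genes stood in the same order. Adora3 made up 54.5% to 85.2% of the adenosine receptor transcripts on the CPM per kb scale, and Adora1, the remaining adenosine receptor, had at most 3 counts in any library. P2rx4 made up 54.1% to 62.4% of the 3 P2X transcripts, and P2ry14 made up 85.3% to 90.9% of the 3 P2Y transcripts. In CPM not divided by length, P2rx7 lay above P2rx4 in 5 of 8 libraries. The order and the shares were computed for canonical lengths alone and depend on the length chosen. The exons of all transcripts together span 7791 bases for P2rx4 and 11234 for P2ry14, against canonical lengths of 2768 and 1795.

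**Figure D2:**
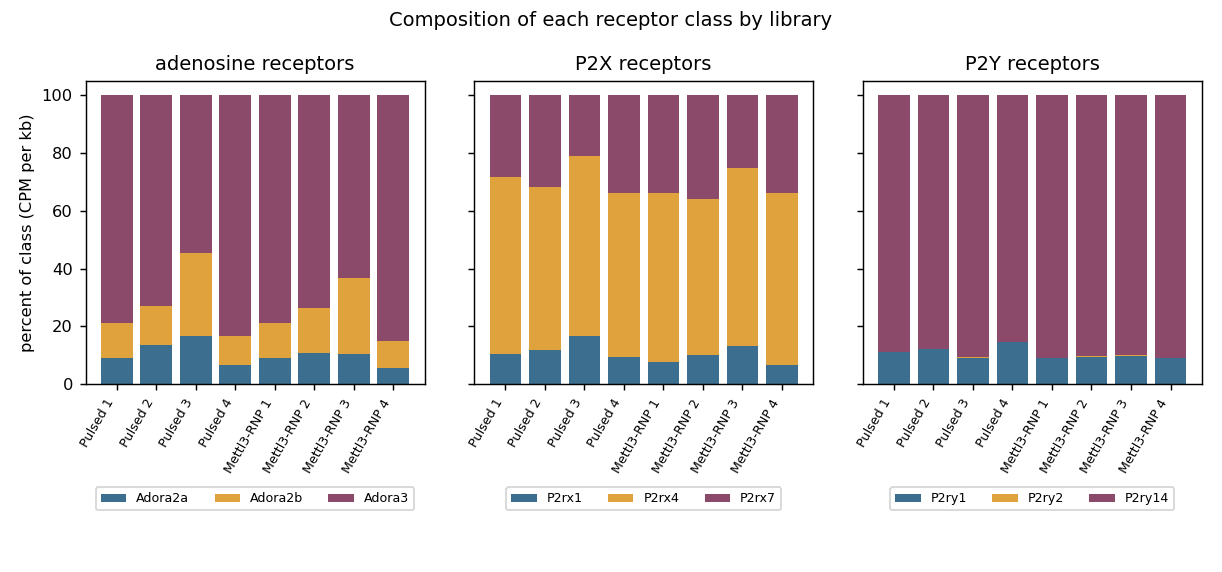
Share of each gene in its receptor class by CPM per kb of canonical transcript (percent, stacked bars), in 4 Pulsed and 4 Mettl3-RNP libraries. The Adora3 share is lowest in the replicate 3 libraries (54.5% in Pulsed 3 and 63.1% in Mettl3-RNP 3), and P2ry14 takes at least 85.3% of its class in every library.

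Among the adenosine receptors, Adora3 (chr3:105778174-105816242, plus strand, GRCm39), the receptor through which adenosine enhances rodent mast cell degranulation, was the most abundant. It was measured at 304, 351, 619 and 331 CPM in Mettl3-RNP 1 to 4 and at 270, 304, 419 and 282 CPM in Pulsed 1 to 4. Each Mettl3-RNP library lay above its Pulsed partner, but the range of the groups overlapped, and replicate 3 was highest in both. The log2 differences were 0.17, 0.20, 0.56 and 0.23 in pairs 1 to 4, and the fitted log2 fold change was 0.29 (SE 0.084, adjusted p 0.0931). The exons of Adora3 share 4.13% of their length with Tmigd3 on the same strand, a gene with 24 to 51 counts per library, and 18.0% with Gm53046, a gene with at most 4 counts.

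Adora2b (chr11:62139804-62157279, plus strand), the low-affinity adenosine receptor, was measured at 37.4, 56.7, 203 and 28.2 CPM in Mettl3-RNP 1 to 4 and at 32.5, 43.2, 174 and 26.9 CPM in Pulsed 1 to 4. The libraries of replicate 3 stood far above the others in both groups, and within each pair the Mettl3-RNP library was higher. The log2 differences were 0.20, 0.39, 0.22 and 0.07, and the log2 fold change was 0.22 (SE 0.075, adjusted p 0.130). Adora2a (chr10:75152560-75170628, plus strand), the high-affinity receptor that dampens immune cell activation through cAMP, was at 40.1, 60.4, 118 and 24.9 CPM in Mettl3-RNP and at 36.5, 66.0, 148 and 25.7 CPM in Pulsed libraries 1 to 4. Its pairs differed in sign (0.14, -0.13, -0.33 and -0.04 on the log2 scale). The log2 fold change of Adora2a was -0.09 (SE 0.087, adjusted p 0.585), with a 95% interval from -0.30 to 0.11, and it was -0.20 without replicate 1 and -0.01 without replicate 3.

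None of the 3 ATP-gated channels passed the test. P2rx7 (chr5:122781942-122830400, plus strand), the channel that needs high ATP and can open the way to mast cell activation and death, was measured at 843, 575, 307 and 652 CPM in Mettl3-RNP 1 to 4 and at 647, 528, 222 and 630 CPM in Pulsed 1 to 4. Replicate 3 was lowest in both groups, and every Mettl3-RNP library lay above its partner. Pairs 1 and 3 differed by 0.38 and 0.47 on the log2 scale and pairs 2 and 4 by 0.12 and 0.05, with a log2 fold change of 0.26 (SE 0.089, adjusted p 0.139). Its neighbour on the chromosome, P2rx4 (chr5:122845541-122867803, plus strand), a channel found largely on lysosomes and the cell surface, had the highest mean level of the set on the CPM per kb scale. P2rx4 was at 814, 484, 422 and 645 CPM in Mettl3-RNP and at 778, 526, 367 and 592 CPM in Pulsed libraries. Pair 2 went against the other pairs, and the log2 fold change was 0.07 (SE 0.076, adjusted p 0.663, 95% interval from -0.11 to 0.24). It was 0.02 without replicate 3 and 0.12 without replicate 2.

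P2rx1 (chr11:72889875-72906026, plus strand), a fast-desensitizing channel, was the one member lower in Mettl3-RNP cells in every pair. It was measured at 98.9, 83.2, 82.4 and 65.1 CPM in Mettl3-RNP 1 to 4 and at 120, 99.9, 89.4 and 87.8 CPM in Pulsed 1 to 4. Only Mettl3-RNP 1 reached into the range of the Pulsed libraries. The log2 differences were -0.28, -0.26, -0.12 and -0.43, and the log2 fold change was -0.27 (SE 0.074, adjusted p 0.0812).

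Among the P2Y receptors, P2ry14 (chr3:59021276-59061134, minus strand), a Gi-coupled receptor for UDP-glucose and related sugars, came closest to the threshold. It was measured at 281, 337, 363 and 263 CPM in Mettl3-RNP 1 to 4 and at 247, 272, 288 and 189 CPM in Pulsed 1 to 4. The Mettl3-RNP library was higher in each pair, while Mettl3-RNP 1 and 4 lay within the Pulsed range. The log2 differences were 0.19, 0.31, 0.34 and 0.48, and the log2 fold change was 0.33 (SE 0.073, adjusted p 0.0523), with a 95% interval from 0.16 to 0.50. P2ry14 passed the threshold in DESeq2 (adjusted p 0.000713), in limma-voom (0.0443) and in 3 edgeR fits with another scaling or a stricter filter (0.0341 to 0.0457), but not with no filter (0.112) or with any replicate left out (0.0927 to 0.328).

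P2ry1 (chr3:60910159-60916403, plus strand), an ADP receptor that couples to Gq, was at 60.9, 77.3, 86.3 and 57.4 CPM in Mettl3-RNP and at 67.8, 80.8, 63.5 and 70.4 CPM in Pulsed libraries 1 to 4. Pair 3 was higher in Mettl3-RNP cells by 0.44 on the log2 scale and the other pairs were lower, by values from -0.06 to -0.30. The fit gave -0.02 on the log2 scale (SE 0.117, adjusted p 0.948), and its sign turned with library sizes alone or without replicate 4. Of its exon length, 21.8% lies opposite the lncRNA Gm37035 (16 to 35 counts), whose reads cannot be told apart there without strand. P2ry2 (chr7:100640649-100663957, minus strand), a receptor for ATP and UTP, was near the limit of detection, with 15, 85, 83 and 21 counts in Mettl3-RNP 1 to 4 and 23, 16, 60 and 22 counts in Pulsed 1 to 4. Its pairs ranged from -0.61 to 2.11, and the log2 fold change of 0.64 had a 95% interval from -0.52 to 1.81 (adjusted p 0.511). The highest pair value came from Mettl3-RNP 2. This library also had the highest counts of some other transcripts near the limit, such as P2rx3 (73 counts, against 3 to 20 in the others). Gnaq (65, against 5 to 29) and Enpp3 (97, against 2 to 28) peaked there too. Others did not, such as Cd38 (52 counts, against 78 in Mettl3-RNP 1) and Slc29a2 (53, against 74 in Pulsed 2). Without replicate 2 the log2 fold change of P2ry2 was 0.14, and without replicate 1 it was 1.02.

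Entpd1 (chr19:40600810-40731585, plus strand), the ectonucleotidase CD39, was measured at 280, 130, 110 and 139 CPM in Mettl3-RNP 1 to 4 and at 258, 115, 84.8 and 108 CPM in Pulsed 1 to 4. Replicate 1 had by far the highest level in both groups, and each Mettl3-RNP library was above its partner. The log2 differences were 0.12, 0.17, 0.37 and 0.37, with a log2 fold change of 0.26 (SE 0.075, adjusted p 0.0955). Nt5e, which completes the conversion to adenosine, had at most 40 counts in any library, and that value too came from Mettl3-RNP 2.

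**Figure D3:**
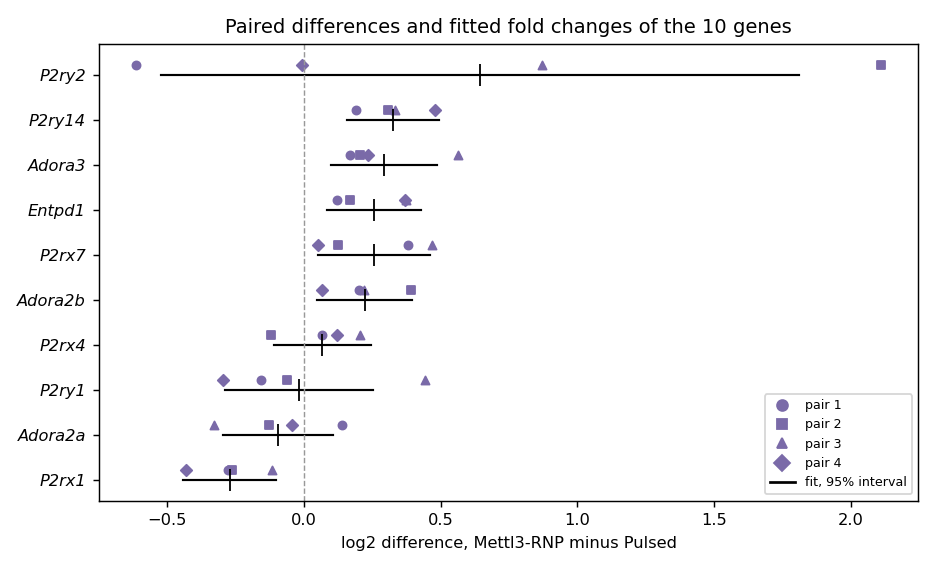
Differences of Mettl3-RNP minus Pulsed on the log2 scale, with 1 point for each of the 4 pairs, the edgeR estimate as a vertical tick and its 95% interval as a horizontal line. The interval lies above 0 for P2ry14, Adora3, Entpd1, P2rx7 and Adora2b and below 0 for P2rx1, with no adjustment for the number of genes tested, and P2ry2 has the widest interval.

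For every member, more of the variance lay between replicate numbers than between the groups. There are more replicate numbers than groups, which by itself favours a larger share between numbers. The share of the variance of log2 CPM that lay between replicate numbers was 98.9% for Adora2a, 98.7% for Adora2b, 96.7% for P2rx4, 94.0% for Entpd1, 93.3% for P2rx7 and 79.2% for Adora3, but 62.4% for P2rx1, 60.5% for P2ry2, 59.2% for P2ry14 and 47.9% for P2ry1, against a median of 78.3% over all genes. The share between groups was highest for P2ry14 (37.2%), P2rx1 (32.2%) and Adora3 (16.1%), against a median of 5.68% over all genes. Adora2b was 5.19-fold and Adora2a 3.34-fold higher in replicate 3 than in the other libraries, and Adora3 was 1.66-fold higher, while P2rx7 was at 0.408, Entpd1 at 0.607 and P2rx4 at 0.626 of the level of the others. Adora2a, Adora2b, P2rx7 and P2ry2 departed by at least 1 log2 unit in replicate 3, as did 20.5% of all genes. Nlrp3, the inflammasome sensor that P2rx7 can engage, was 12.4-fold higher in replicate 3, at 869 and 948 CPM in Mettl3-RNP 3 and Pulsed 3 against 51.8 to 122 CPM in the others. What set replicate 3 apart was not tested. Without replicate 3, Adora2b ranged over 1.61-fold instead of 6.49-fold in Pulsed libraries, Adora3 over 1.12-fold instead of 1.55-fold and P2rx7 over 1.23-fold instead of 2.92-fold. It stayed wider for Adora2a (2.57-fold instead of 5.75-fold) and Entpd1 (2.39-fold instead of 3.04-fold), and it was the same for P2rx1 (1.36-fold) and close to it for P2ry14 (1.44-fold instead of 1.53-fold).

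The levels of Adora2a and Adora2b ran in parallel over the 8 libraries (r = 0.95 for log2 CPM), as did those of P2rx4 and P2rx7 (r = 0.90) and of P2rx4 and Entpd1 (r = 0.89), while Adora2b and P2rx7 ran opposite to each other (r = -0.91). Libraries of the same number are not independent points and replicate 3 lies at the end of most of these ranges, so the values are a description. Among the 11975 genes whose mean reached 1 CPM, the profile most like each member was that of Cdk17 for Adora2b (r = 0.998), Miip for P2rx7 (0.997), Kif3c for P2rx4 (0.994), Irf2bp2 for Adora2a (0.990), Mier2 for P2rx1 (0.989), Usp28 for P2ry14 and Arsk for Entpd1 (0.984 each), Zfp954 for Adora3 (0.982), Med21 for P2ry2 (0.972) and Rer1 for P2ry1 (0.952).

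The remaining genes of the pathway were taken from 5 lists of 83 genes, chosen with earlier results of these data known. In edgeR 5 of the 59 tested passed (8.47%, against 3.74% of all genes tested). Of these, 4 passed as higher and 1 as lower in Mettl3-RNP cells, and 54 of the tested genes did not pass. The median log2 fold change of the 59 tested genes was 0.0074. Of the 4 higher genes, 3 encode subunits of the gamma form of PI3K, the lipid kinase that acts downstream of Gi-coupled receptors such as Adora3. The catalytic subunit Pik3cg was at 289, 324, 247 and 324 CPM in Mettl3-RNP 1 to 4 and at 257, 252, 174 and 252 CPM in Pulsed 1 to 4, with a log2 fold change of 0.35 (SE 0.076, adjusted p 0.0489). Mettl3-RNP 3 was the one Mettl3-RNP library within the Pulsed range. The regulatory subunit Pik3r6 was at 79.7, 74.0, 42.4 and 70.5 CPM against 65.1, 59.8, 34.6 and 54.2 CPM (log2 fold change 0.32, SE 0.064, adjusted p 0.0386). The other regulatory subunit, Pik3r5, had low levels, 6.76, 2.06, 0.602 and 4.16 CPM against 3.88, 1.07, 0.323 and 1.34 CPM (log2 fold change 1.08, SE 0.222, adjusted p 0.0423). All 3 were higher in 4 of 4 pairs, but none of them passed with any replicate left out (adjusted p 0.0574 to 0.266), nor did Pik3cg (0.0723) and Pik3r6 (0.164) with no filter on low counts. The other 24 of the 27 tested G protein and cAMP genes did not pass in edgeR. The most abundant, the stimulatory subunit gene Gnas, had a log2 fold change of -0.21 (adjusted p 0.121). Prkar1a was called as lower by DESeq2 (log2 fold change -0.27, adjusted p 0.0257).

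Adk, which returns adenosine to AMP inside the cell, was the single gene to pass in the main edgeR fit among 10 tested genes of adenosine uptake and metabolism. It was measured at 166, 229, 229 and 252 CPM in Mettl3-RNP 1 to 4 and at 132, 201, 165 and 197 CPM in Pulsed 1 to 4, and was higher in each pair (log2 fold change 0.34, SE 0.072, adjusted p 0.0474). Adk did not pass with no filter (0.0956) or with DESeq2 size factors (0.0507). Ampd3 of the same list (main edgeR adjusted p 0.0522) was called as higher by DESeq2 (0.00852). It also passed in edgeR with no filter (0.0413) and with at least 10 counts in every library (0.0381). P2ry10 was the single gene to pass as lower in the main edgeR fit, among 3 tested of 11 other receptors of the family. It had 68, 32, 19 and 26 counts in Mettl3-RNP 1 to 4 and 170, 74, 101 and 73 counts in Pulsed 1 to 4, so that the groups did not overlap. Its log2 fold change was -1.53 (SE 0.230, adjusted p 0.0199). Despite its name, P2ry10 is known as a receptor for lysophosphatidylserine rather than for nucleotides. Its close relative P2ry10b, the most abundant of the other receptors at a mean of 4.997 CPM, had a log2 fold change of 0.29 (adjusted p 0.364), and reads that match both copies may have been divided between them.

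None of the 7 tested other ectonucleotidases passed, with a log2 fold change of 0.09 for Entpd7, the most abundant at a mean of 31.0 CPM (adjusted p 0.570). In the main edgeR fit none of 12 tested genes of ATP release and P2rx7 partners passed either. The log2 fold change was -0.14 for Nek7 at a mean of 422 CPM (adjusted p 0.349) and -0.29 for Nlrp3 (adjusted p 0.0710). Nlrp3 was called by DESeq2 (adjusted p 0.0150) and by edgeR with at least 10 counts in every library (0.0478). Il1b was called by edgeR with no filter (0.0310). P2ry12, the platelet ADP receptor, and Alpl were at 0 counts in every library. Without replicate 1 or 2 none of the 5 pathway genes called in the main fit passed, and without replicate 3 or 4 P2ry10 alone did. In these 4 fits the log2 fold changes kept their sign, from 0.30 to 0.37 for Pik3cg, from 0.29 to 0.32 for Pik3r6, from 0.88 to 1.14 for Pik3r5, from 0.29 to 0.38 for Adk and from -1.62 to -1.39 for P2ry10.

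**Figure D4:**
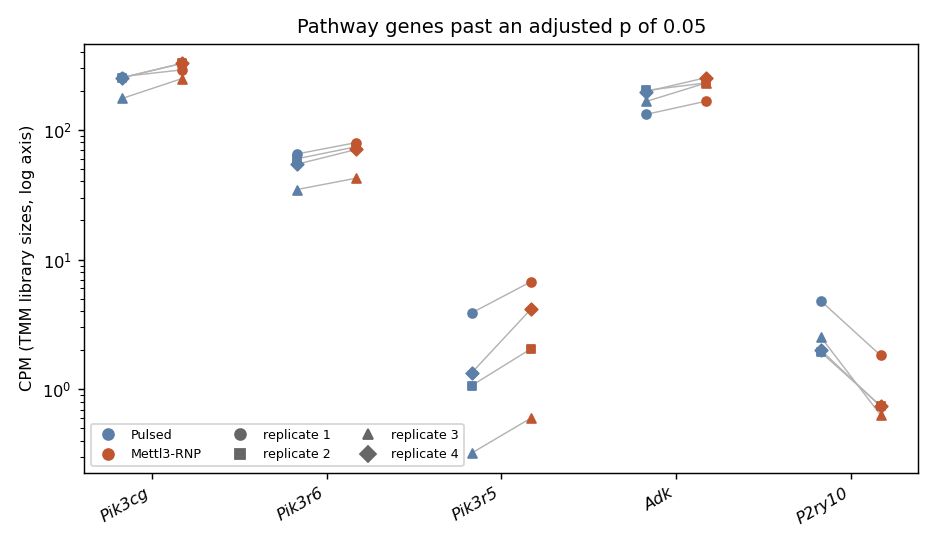
CPM on a log axis of the 5 pathway genes with an adjusted p of 0.05 or less, each point 1 library and each line 1 pair. Every line rises from Pulsed (blue) to Mettl3-RNP (orange) for Pik3cg, Pik3r6, Pik3r5 and Adk and falls for P2ry10, whose Mettl3-RNP libraries lie below all Pulsed libraries.

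Gene structure differed between the receptor classes. The adenosine and P2Y receptor genes had few exon junctions, from 0.24 per kb of canonical transcript for P2ry2 to 0.73 for Adora2a, while P2rx7 had 2.42, P2rx4 3.97 and P2rx1 4.33, against a median of 2.62 over 12056 tested protein-coding genes. The 6 G protein-coupled receptor genes held Adora2b, Adora3 and P2ry14, which were higher in every pair, and Adora2a, P2ry1 and P2ry2, which were not. GGACT, the core of the sequence that Mettl3 prefers, occurred 4 times in the canonical transcript of Adora2b (2.16 per kb), 5 times in Adora3 (2.11 per kb) and 10 times in Entpd1 (1.74 per kb). It was found 4 times each in P2rx1, P2rx4 and P2rx7 (1.57, 1.45 and 0.805 per kb), 5 times in P2ry1, 13 times in P2ry2, 1 time in Adora2a and not at all in P2ry14. The median was 1.04 per kb, and 93.8% of the 12056 transcripts held at least 1 match. P2ry14, the member with the smallest adjusted p, was thus among the few without these letters, which says nothing of methylation at other sites. Its canonical transcript has 1795 bases, while its annotated exons span 11234 bases. The study mapped m6A directly by miCLIP-seq in resting and stimulated mast cells, and those sites were not examined here.

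Promoter sequence was examined in the 250 bases before the annotated starts of RefSeq (GRCm38.p6), which were found for 9 of the 10 members. A set of 4 motifs, chosen after the values had been seen, were searched on both strands. The AP-1 motif TGACTCA was present in 4.46% of 32851 promoters and in 3 of the 15 promoters of the members. These were the promoter of Adora3, 1 of the 2 of P2rx7 and 1 of the 4 of P2ry14, and these genes were all higher in 4 of 4 pairs. The promoters of Adora2b and Entpd1, also higher in 4 of 4 pairs, held no match. The cAMP response element TGACGTCA (1.55% of promoters) and the GATA motif AGATAAG (2.74%) were found in no member, and the E-box CACGTG (6.02%) in P2ry2. The AP-1 windows are shown with the motif in capitals, 5′ to 3′ on the strand of the gene, at chr3:59153648-59153734 (minus strand) for P2ry14, chr3:105904283-105904369 (plus strand) for Adora3 and chr5:122643677-122643724 (plus strand) for P2rx7.
P2ry14: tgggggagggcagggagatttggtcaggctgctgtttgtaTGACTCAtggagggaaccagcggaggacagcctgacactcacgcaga
Adora3: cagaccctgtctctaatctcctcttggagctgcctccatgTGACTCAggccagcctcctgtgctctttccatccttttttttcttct
P2rx7: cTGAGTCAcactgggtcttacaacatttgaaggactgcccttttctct
The match in Adora3 begins 98 bases before the start, that in P2ry14 begins 202 bases before it, and that in P2rx7 lies at the far end of the window. A match of letters is not a measured binding site, and the libraries hold no measure of AP-1 binding.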

How the data were processed

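RNA-seq of poly-A RNA was available for 8 libraries, 4 of each group. Per the labels and the study's methods, reads were checked with FastQC 0.11.9, aligned with HISAT2 2.2.1 to GRCm39 and counted per Ensembl gene with featureCounts 2.0.1, and the values deposited by the authors are raw counts. The methods describe a batch correction after counting whose batch is not named, and the strand setting is not given in the sources used here.

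Genes were kept by filterByExpr, library sizes scaled by TMM, and groups compared by the quasi-likelihood test of edgeR 4.0.16 (R 4.3.3) with the replicate number as a block. The threshold was a Benjamini-Hochberg adjusted p of 0.05 over 14942 genes. The fit was tested on simulated data. The block was used because the series text names 4 mice and same-numbered libraries deviated together (r = 0.825, 0.489, 0.879 and 0.765, against at most 0.183 for other numbers, over 11985 genes). The link from number to mouse is an inference. P-values measure only the spread between these samples. Counting noise was far smaller than the difference between any libraries of the same group. Log2 CPM used a prior count of 2.

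Alternatives were no block, DESeq2 1.42.0, limma 3.58.1 (voom, and removeBatchEffect before limma-trend), other scalings and filters, and leaving out each replicate. Levels without replicate 3 were added after seeing the data. Names and structures came from GENCODE M39, which named 56017 of 56748 IDs. Lengths are those of Ensembl canonical transcripts, in place of the exon lengths planned for levels and the longest transcripts planned for structure. This was done since the longest P2rx4 and P2ry14 transcripts are single-exon. The order of levels was not computed with other lengths. Exon sharing was taken from the same annotation.

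The members and gene lists were chosen with earlier results of these data known. Named were all members, Mettl3, every pathway gene past the threshold, the most abundant gene of each pathway role and each marker list, markers at 0, and the most alike gene of each member. Nlrp3, Nt5e, Adora1, P2rx3, Gnaq, Enpp3, P2ry12 and Alpl were named after their values were seen. So were Ampd3, Prkar1a, Il1b, Mrgprb2, C3ar1, Cd38 and Slc29a2.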

Additional observations from a re-analysis of the deposited data

Results flagged for a closer look

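Outliers were sought in 32 groups of 4 libraries, 2 groups for each of 10 members, Mettl3 and the 5 pathway genes past the threshold. Of these groups, 6 held a library far from the other 3, and 5 of the 6 libraries were of replicate 3. Chance would give about 1.6 if the groups were independent with normal values. The groups share libraries and pairs, so the count is a description. Adora2b was at 203 CPM in Mettl3-RNP 3, against 28.2 to 56.7 CPM in the other Mettl3-RNP libraries, and at 174 CPM in Pulsed 3, against 26.9 to 43.2 CPM. Adora3 was at 619 CPM in Mettl3-RNP 3, against 304 to 351 CPM. Mettl3 was at 11.2 CPM in Pulsed 3, against 24.5 to 26.5 CPM, and Pik3cg at 174 CPM in Pulsed 3, against 252 to 257 CPM. P2ry10 was at 1.83 CPM in Mettl3-RNP 1, against 0.635 to 0.748 CPM. The values of pairs 1, 2 and 4 given above for Adora2b, Adora3, Mettl3 and Pik3cg had the same direction as pair 3.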

How the results depend on the processing

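The count of genes past the threshold was 559 and became 0 without the replicate block (smallest adjusted p 0.427, with 579 genes at an unadjusted p under 0.05), 1449 in DESeq2, 4564 after removeBatchEffect, 993 with no filter, 959 with at least 10 counts in every library, and 26 to 383 with one replicate left out. After removeBatchEffect the test does not subtract the degrees of freedom spent on the replicate numbers. Among the 10 members, 0 passed without the block, with no filter and with any replicate left out. DESeq2 called 4 (Adora3, P2rx1, P2ry14 and Entpd1) and removeBatchEffect 6 (these with Adora2b and P2rx7). P2ry14 was the 1 member called by limma-voom, with DESeq2 size factors, with library sizes alone and with at least 10 counts in every library. Pathway calls numbered 5, and became 0 without the block, 8 in DESeq2 and 24 after removeBatchEffect. They became 4 with no filter, 4 with DESeq2 size factors and 0 to 1 with one replicate left out. DESeq2 kept the 5 genes and added Ampd3, Nlrp3 and Prkar1a. With no filter the 4 genes were P2ry10, Ampd3, Il1b and Pik3r5. Mettl3 kept its log2 fold change without the block (-1.31) but not its call. P2ry1 turned from -0.02 to 0.015 with library sizes alone and ranged from -0.17 to 0.085 with one replicate left out, positive only without replicate 4. All other members kept their direction in every alternative. The cause of these changes was not tested. Counting precision limits P2ry2, with 15 to 85 counts per library, and hardly any other member, with at least 875 counts each.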

Other observations

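Receptors of other mast cell mediators formed a list of 20 genes, of which 13 were tested, with a median log2 fold change of -0.20. In edgeR 1 passed as lower in Mettl3-RNP cells and 0 as higher (7.69%, against 3.74% of all genes tested). The gene that passed was Ccr1, a receptor for inflammatory chemokines, at 21.99, 48.2, 33.1 and 29.4 CPM in Mettl3-RNP 1 to 4 and at 59.6, 100, 49.2 and 73.0 CPM in Pulsed 1 to 4. The groups did not overlap, and the log2 fold change was -1.10 (SE 0.136, adjusted p 0.0139 by edgeR), with an adjusted p of 0.0648 without replicate 2. Ptger3, a prostaglandin receptor and the most abundant of the list at a mean of 287 CPM, had a log2 fold change of -0.30 (adjusted p 0.171). Mrgprb2 (edgeR adjusted p 0.0812) was called as lower by DESeq2 (log2 fold change -1.61, adjusted p 0.000843) and by limma-voom (0.0385). With a replicate left out it passed only without replicate 4 (0.000875). C3ar1 (edgeR adjusted p 0.103) was called as lower by DESeq2 (log2 fold change -0.44, adjusted p 0.0155).

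In the marker lists of other cells, edgeR called 1 of 4 tested macrophage markers and 1 of 5 basophil markers. It also called 1 of 2 eosinophil markers and 1 of 2 dendritic cell markers. All these markers were called as lower in Mettl3-RNP cells, as were 1.39% of all genes tested. None passed among 2 tested megakaryocyte markers and 1 lymphocyte marker, and no neutrophil marker was tested. Siglecf did not pass without replicate 2 (adjusted p 0.0976), and Il18rap (0.0549 to 0.106) and H2-Ab1 (0.0949 to 0.135) did not without replicate 1, 2 or 3. With library sizes alone H2-Ab1 did not pass (0.0575). Siglecf, an eosinophil marker, had 30 to 86 counts in Mettl3-RNP and 125 to 201 counts in Pulsed libraries (log2 fold change -1.497, adjusted p 0.0199), while Epx and Ear1 of the same list were at 0 in every library. H2-Ab1, an antigen presentation gene listed for dendritic cells, had a log2 fold change of -0.78 (adjusted p 0.0492) at a mean of 5.04 CPM, Flt3, the other tested gene of that list, was at 1.29 (adjusted p 0.513), and Cd209a was at 0. The basophil list was led by Cd200r3 at a mean of 630 CPM (log2 fold change 0.25, adjusted p 0.151), and Il18rap of that list was lower (-0.79, adjusted p 0.0324). The megakaryocyte list was led by Itga2b at a mean of 1870 CPM, which mast cells also express, while its platelet markers Ppbp and Gp6 had at most 2 counts. The lymphocyte list summed to at most 1.59 CPM, with Cd3e its most abundant gene. Their part in the values of the receptor genes was not tested.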
